A study of Mus musculus with 12 samples.

Results

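Ribosomal protein and translation factor genes are described here as promoters whose contacts were captured in mouse blood stem cells. Members are the genes whose name begins with Rpl, Rps, Mrpl, Mrps, Eif or Eef, leaving out the Rps6k kinases, after removal of the suffix that numbers alternative promoters. The rule gave 106 of the 3374 genes in the deposited contact table, 117 of its 3781 promoter entries and 3345 of its 89545 contacts. By name, 45 genes carry names of cytosolic ribosomal proteins (Rpl and Rps), 35 those of mitochondrial ribosomal proteins (Mrpl and Mrps) and 26 those of initiation or elongation factors (Eif and Eef). The label was checked against RefSeq names. Of the 106 names, 103 were current symbols and 3 were synonyms, Rps3a of Rps3a1, Rps4y2 of Rps4l and Eif2c4 of Ago4. Ago4 is an Argonaute protein of the small RNA pathway and not an initiation factor, and names do not settle a role for the rest either. Eif4a3 is known as the helicase of the exon junction complex and Mrps36 as a part of the oxoglutarate dehydrogenase complex, and both are counted here under their names.

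In promoter Capture-C, cross-linked chromatin is cut with DpnII and religated, and probes then pull out the ligation products of chosen promoters. Haematopoietic stem cells (HSCs) came from fetal liver at embryonic day 14.5 and from bone marrow of adults 6 to 8 weeks old, with 4 libraries each, 2 of them in each of 2 batches. Both populations came from B6129SF1 mice and were sorted as Lin-Sca1+cKit+CD135- cells, with no transgene, deletion or treatment named for either. A further 4 samples, of the HPC7 blood progenitor line with and without TCF3, were not analysed here.

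The table holds 1 pooled value for each population of a batch. Spread between libraries is therefore unknown, and no difference below has a test. Intervals are exact 95% Clopper-Pearson intervals of shares or order-statistic intervals of medians. These bounds reflect counting error alone, and they understate the error because neighbouring bins are often called together. A contact joins a promoter entry (1 captured fragment) to a distal bin of 2000 bp, and it was called in a population where the authors' score was above 0. The lowest such score was 1.3 in the first batch and 2.0 in the second, and a member call rested on a median of 11 to 12 counts (first batch) or 29 to 30 counts (second). The batches are therefore given apart. The first held 85 member entries of 74 genes (52 entries cytosolic, 17 mitochondrial, 16 factors) and the second 32 entries of 32 genes (1 cytosolic, 19 mitochondrial, 12 factors), with 0 member genes in both.

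Ribosomes consist of a small and a large subunit, whose proteins are made in near equal amounts from genes scattered over many chromosomes. Initiation factors bring the messenger RNA cap, the initiator tRNA and the small subunit together, and elongation factors deliver each further tRNA. Haematopoietic stem cells are known for a low rate of protein synthesis, and loss of 1 copy of a ribosomal protein gene such as RPS19 causes the red cell disorder Diamond-Blackfan anaemia. Messenger RNAs of cytosolic ribosomal proteins begin with a run of pyrimidines that places their translation under control of the kinase mTOR.

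The promoters of 8 members are printed first, because their contacts are described below, although no contact result rests on the letters. Sequences are from RefSeq (GRCm38.p6), read 5′ to 3′ on the gene's own strand, from 200 bases before the annotated start to 30 bases after it, in all 230 bases each. These coordinates are of another build than the contact coordinates (mm9, per the submitters' processing notes) and the builds were not mixed. Capitals mark matches to the motifs searched. On either strand these are CCGGAAG (the reverse complement is printed in Rps2), the TATA letters TATAAA, the E-box CACGTG and, in Rps19, the palindrome that ZBTB33 (Kaiso) can bind. On the sense strand from 50 bases before the start onwards they are CTTTT in Rps12 and otherwise TCTTT. Rps19, Rps12 and Rps2 had entries with more adult than fetal calls, and Rpl34 and Mrps22 had more fetal calls.
Rps19 (chr7:24884392-24884621, plus strand): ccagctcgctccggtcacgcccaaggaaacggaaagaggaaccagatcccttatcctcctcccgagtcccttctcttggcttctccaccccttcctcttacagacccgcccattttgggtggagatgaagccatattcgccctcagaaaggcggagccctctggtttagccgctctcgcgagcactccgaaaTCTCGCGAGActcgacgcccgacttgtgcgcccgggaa
Rps12 (chr10:23787180-23787409, minus strand): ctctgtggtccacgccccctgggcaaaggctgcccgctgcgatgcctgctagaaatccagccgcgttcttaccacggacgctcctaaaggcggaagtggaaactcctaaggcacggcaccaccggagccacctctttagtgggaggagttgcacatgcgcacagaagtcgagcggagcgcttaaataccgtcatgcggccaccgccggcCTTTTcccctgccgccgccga
Rps2 (chr17:24719863-24720092, plus strand): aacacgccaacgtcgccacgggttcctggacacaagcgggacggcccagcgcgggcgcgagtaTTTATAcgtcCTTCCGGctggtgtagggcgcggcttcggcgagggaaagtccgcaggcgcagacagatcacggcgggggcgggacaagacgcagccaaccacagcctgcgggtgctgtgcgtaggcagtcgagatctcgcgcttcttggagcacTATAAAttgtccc
Rpl34 (chr3:130730369-130730598, minus strand): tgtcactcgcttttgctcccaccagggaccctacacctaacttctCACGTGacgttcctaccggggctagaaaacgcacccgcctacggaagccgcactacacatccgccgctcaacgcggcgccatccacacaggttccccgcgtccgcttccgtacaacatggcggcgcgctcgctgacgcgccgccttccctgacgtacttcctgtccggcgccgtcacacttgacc
Mrps22 (chr9:98601650-98601879, minus strand): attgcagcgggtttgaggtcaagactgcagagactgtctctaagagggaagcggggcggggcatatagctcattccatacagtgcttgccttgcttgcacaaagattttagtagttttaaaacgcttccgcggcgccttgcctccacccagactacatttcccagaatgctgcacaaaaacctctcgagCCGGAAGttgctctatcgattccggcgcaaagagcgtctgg
Rpl7a had many calls in both populations, and Eif2b5 and Eif4g1 contacted each other's promoter.
Rpl7a (chr2:26910607-26910836, plus strand): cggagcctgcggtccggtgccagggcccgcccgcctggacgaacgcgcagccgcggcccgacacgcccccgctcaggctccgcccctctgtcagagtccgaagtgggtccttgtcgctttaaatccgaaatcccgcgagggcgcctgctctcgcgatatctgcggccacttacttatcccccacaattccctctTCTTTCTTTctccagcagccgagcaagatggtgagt
Eif2b5 (chr16:20498617-20498846, plus strand): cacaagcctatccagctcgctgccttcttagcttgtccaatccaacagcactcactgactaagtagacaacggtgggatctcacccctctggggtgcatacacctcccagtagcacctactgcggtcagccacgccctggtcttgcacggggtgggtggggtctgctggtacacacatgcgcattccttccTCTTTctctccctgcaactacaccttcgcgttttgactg
Eif4g1 (chr16:20672527-20672756, plus strand): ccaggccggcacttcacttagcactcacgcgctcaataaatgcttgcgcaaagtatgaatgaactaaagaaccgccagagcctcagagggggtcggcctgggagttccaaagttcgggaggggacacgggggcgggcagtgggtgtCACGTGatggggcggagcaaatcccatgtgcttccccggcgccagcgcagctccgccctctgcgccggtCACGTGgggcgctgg

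RefSeq promoters were found for 87 of the 106 genes, with 110 annotated starts in all (42 cytosolic, 38 mitochondrial, 30 factors). Alternative starts of a gene can overlap, so these are not 110 independent sequences. The window ran from 250 bases before to 50 bases after each start. CCGGAAG, the core that ETS factors such as GABPA recognise, lay in 32.7% of member starts (24.1 to 42.3) on either strand, against 8.86% of all 32851 promoters and 13.6% of 3182 starts of the other captured genes. AAGATGGC, the core of the YY1 motif, lay in 13.6% (7.84 to 21.5), against 2.75% and 3.30%. The E-box CACGTG, which MYC and related factors recognise, lay in 13.6% as well, against 7.15% and 10.3%. The TATA box letters TATAAA were found in 4.55% of member starts (1.49 to 10.3), against 13.6% and 8.01%. The ZBTB33 palindrome lay in 3 member starts, 1 of Rpl12 and 2 of Rps19, which is 2.73% of member starts, beside 0.466% of all promoters and 0.660% of those of other captured genes.

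Pyrimidine runs were searched on the sense strand in the last 100 bases of the window. TCTTT lay in 40.5% of the cytosolic starts (25.6 to 56.7), in 7.89% of the mitochondrial starts and in 6.67% of the factor starts, against 11.8% of all promoters and 7.98% of the other captured genes. CTTTCC lay in 26.2% of the cytosolic starts (13.9 to 42.0), in 7.89% of the mitochondrial and in 0 of 30 factor starts, against 4.69% and 4.09%. CTTTT lay in 8 of 42 cytosolic starts (8.60 to 34.1%), an interval that holds the 11.1% of all promoters. TCTTT and CTTTT can share letters in a longer run, as can TCTTT and CTTTCC. A match is only a run of letters, and none of these was tied to a contact.

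First-batch promoters of cytosolic ribosomal proteins made 905 fetal calls and 990 adult calls. A median entry had 13.5 fetal and 14.5 adult calls, and entries ranged from 1 to 52 and from 0 to 55. Fetal calls outnumbered adult calls at 21 entries and the reverse held at 28 (42.9% fetal, 28.8 to 57.8). Over the batch as a whole, 48.1% of the 1952 entries had more fetal and 42.1% more adult calls. The median log2 ratio of calls, with 1 added to each side, was -0.17 (-0.42 to 0.14) for the cytosolic entries. Neither interval separates these promoters from equality. The rest of the batch had 30664 fetal and 28870 adult calls and a median log2 ratio of 0.

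Among the 74 member entries of the first batch with at least 10 calls, 5 had at least 2-fold more adult calls and 0 had at least 2-fold more fetal calls. In the whole batch 4.2% of such entries passed that size towards adult and 6.47% towards fetal. Described here are 4 of the 5, all genes of the small subunit, with 2 of them alternative promoters of a gene whose other entries did not pass. Rps12 had 6 fetal and 14 adult calls, and Rps19, the gene mutated most often in Diamond-Blackfan anaemia, had 7 and 15. Rps2_1 had 10 and 24 calls, while Rps2 itself, captured through a neighbouring fragment, had 28 and 36. Rps14_2 had 10 and 22 calls, while Rps14 had 33 and 45 and Rps14_1 had 17 and 14.

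The adult-only calls of Rps12, Rps2_1 and Rps19 rested mostly on few reads, with at most 10, 20 and 42 adult counts in a bin. Those of Rps14_2 reached 403 adult counts, in a bin 1.2 kb away that had 391 fetal counts and was called in adult cells alone. That bin overlaps the captured Rps14_2 fragment itself and holds the fragments of Rps14_1 and Rps14, so it is no distant partner. Counts over contacts called in 1 population alone lean to that population through the choice of contacts and are given for their size. Within the chromosome, the 12 adult-only contacts of Rps12 held 35 fetal and 75 adult counts, with no bin above 10 adult counts, at 294 to 1054 kb. The 12 adult-only contacts of Rps19 held 88 fetal and 151 adult counts at 17.4 to 789 kb, and 11 of these bins were open chromatin in at least 1 population. Over all listed contacts beyond 20 kb, called in either population, the summed counts differed less than the calls. Fetal over adult counts came to 72 over 101 at Rps12, 127 over 157 at Rps19, 283 over 330 at Rps2_1 and 338 over 373 at Rps14_2. With called bins up to 5 kb apart merged to 1 contact, 1 member entry in place of 5 passed towards adult and 4 in place of 0 towards fetal. The 1 entry was not cytosolic, so none of the entries described here passed after merging.

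The first-batch entries that leaned furthest towards fetal calls fell short of the 2-fold size. Rpl34 had 22 fetal and 11 adult calls, Mrps28 had 19 and 10, Rpl9 had 20 and 11, Rps3a had 21 and 12, and Mrps10 had 12 and 7. The 17 fetal-only contacts of Rpl34, a protein of the large subunit, lay 152 to 554 kb away. Over all its listed contacts beyond 20 kb Rpl34 had 186 fetal and 138 adult counts. None of those 17 bins carried an active-promoter mark, and 8 were open chromatin in at least 1 population. The entries with the most calls were near balance. Eef1d, the exchange factor subunit that recharges elongation factor 1, had 87 fetal and 77 adult calls. Mrpl21 had 61 and 60, Rpl28_1 had 45 and 55, Rpl7a had 52 and 46, and Mrps18a had 43 and 42.

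**Figure D1:**
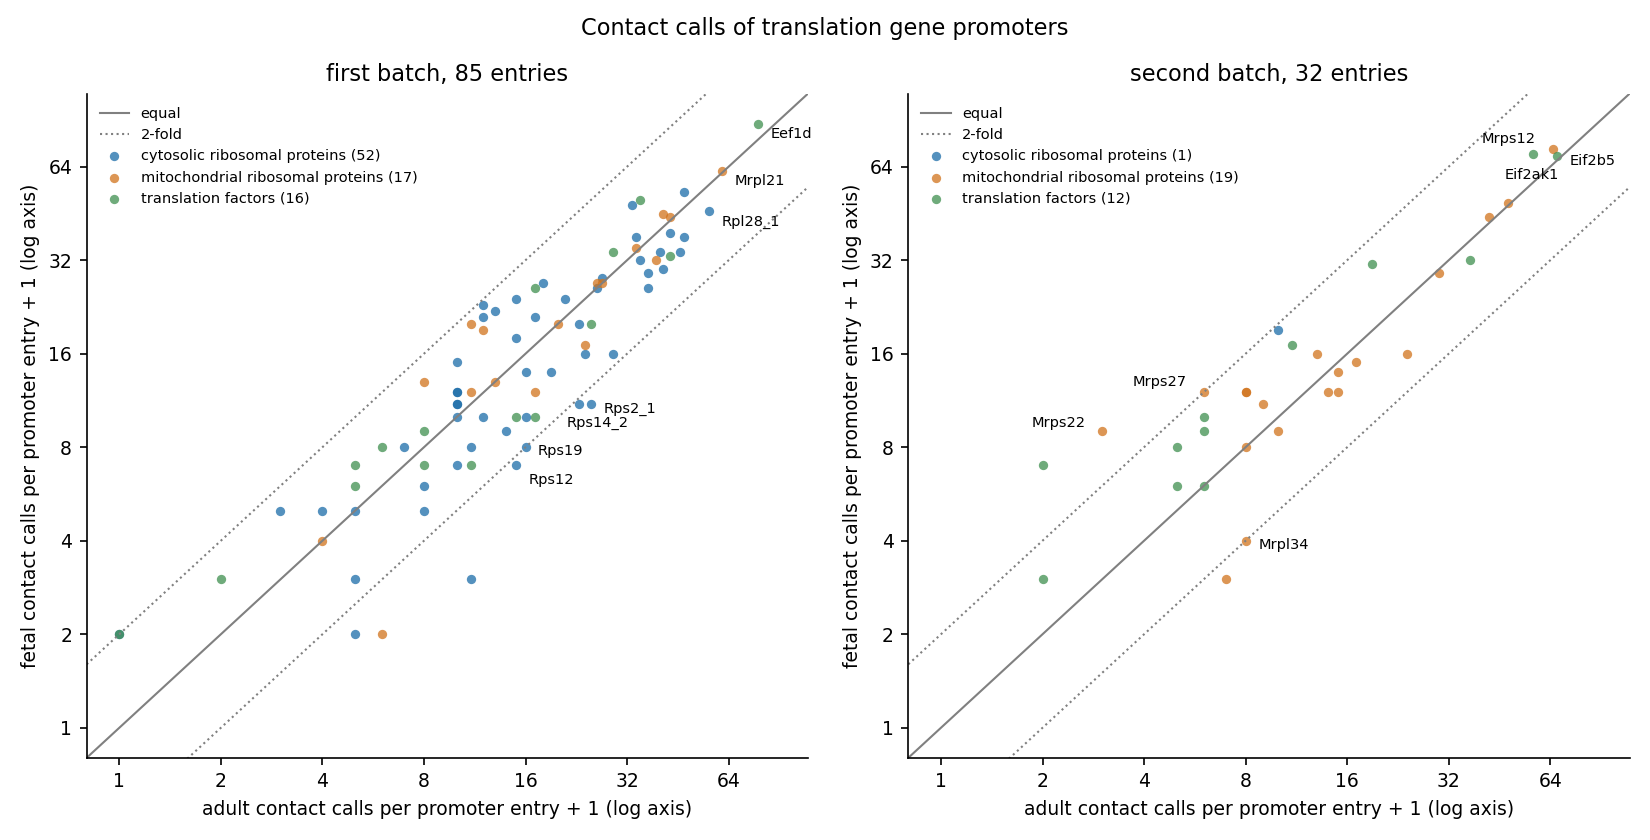
Fetal against adult contact calls of each member promoter entry, with 1 added to each and both axes on a log scale, in the first batch (85 entries) and the second (32 entries). Points are entries coloured by role, the solid line marks equal calls and the dotted lines a 2-fold difference. Rps12, Rps19, Rps2_1 and Rps14_2 lie on or below the lower dotted line, and most entries with many calls lie near the solid line.

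Promoters of mitochondrial ribosomal proteins were close to balance in both batches. In the first batch 17 entries made 387 fetal and 380 adult calls, with more fetal calls at 9 entries, more adult calls at 4 and equal numbers at 4. The second held 19 entries, which made 341 fetal and 331 adult calls, with 9 entries on each side and 1 equal. The whole second batch had more fetal calls at 50.1% of its 1829 entries and more adult calls at 38.1%. Of 28 member entries with at least 10 calls in that batch, 2 passed the 2-fold size towards fetal and 1 towards adult, against 5.28% and 3.25% of all such entries. Mrps22, a protein of the small mitochondrial subunit, had 8 fetal and 2 adult calls, and Mrps27 had 11 and 5. Mrpl34, of the large mitochondrial subunit, had 3 and 7.

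Contacts of Mrps22 were compared by counts as well as calls. All its listed contacts beyond 20 kb summed to 220 fetal and 127 adult counts. The single adult-only contact lay 37.5 kb away, with 40 fetal and 44 adult counts, so a nearly equal count was called in adult cells alone.

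Among translation factors, first-batch promoters made 304 fetal calls against 289 adult, and fetal calls were the more numerous at 10 entries and adult calls at 6. Those of the second made 256 fetal and 211 adult calls, with more fetal calls at 10 of 12 entries, more adult calls at 1 and equal calls at 1 (90.9% of the unequal entries, 58.7 to 99.8). The median log2 ratio of the 12 entries was 0.58 (0.04 to 0.71), against 0 in the rest of the batch. In that batch tRNA synthetases had more fetal calls at 7 entries and more adult calls at 0, and proteasome genes at 7 and 2. Ribosome biogenesis genes had 1 and 4, and genes for control of translation by nutrients 0 and 2. Eif3d, the subunit of initiation factor 3 that can itself bind the cap, had 30 fetal and 18 adult calls. Eef1e1, a scaffold protein of the tRNA synthetase complex, had 9 and 5. Eif2ak1, the haem-regulated kinase that inhibits initiation, had 69 and 56. The Argonaute gene Eif2c4, with 16 and 10, is counted among the 10 entries. Eif2b4 was the entry with more adult calls, at 31 and 36.

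The 5 subunits of eIF2B, the exchange factor that reloads initiation factor 2 with GTP, were all captured, and they are named here for their shared complex after their values were seen. Eif2b1 had 25 fetal and 16 adult calls, Eif2b2 had 8 and 7, Eif2b3 had 49 and 34, Eif2b4 had 31 and 36 and Eif2b5 had 68 and 66. The first 3 were captured in the first batch and the other 2 in the second. Thus 4 of the 5 had more fetal calls, beside 48.1% of all entries in the first batch and 50.1% in the second. Eif2b2 and Eif2b5 were nearly equal, and 5 entries show no direction for the complex. Genes of the cap-binding machinery in the second batch had few calls. Eif4a1, a helicase, had 8 and 5, Eif4g1, the scaffold, had 2 and 1, and the cap-binding proteins Eif4e2 and Eif4e3 had 7 and 4 and 6 and 1.

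Contacts called in 1 population alone were split near evenly among first-batch members and leaned to fetal in the second. In the first batch 848 were fetal-only and 911 adult-only (48.2% fetal, 45.9 to 50.6), with 748 called in both. The rest of that batch stood at 52.5% fetal (52.0 to 53.1), and the whole batch had 38.9% of contacts fetal-only and 35.4% adult-only. The cytosolic promoters had the lowest fetal share, 46.0% (43.0 to 49.1), with 50.9% for mitochondrial promoters and 52.6% for factors. Among second-batch member contacts, 287 were fetal-only and 223 adult-only (56.3% fetal, 51.8 to 60.6), against 53.7% in the rest and, over the whole batch, 33.8% fetal-only and 29.1% adult-only of all contacts. The factors stood at 61.8% (54.5 to 68.7) and the mitochondrial promoters at 51.6%. In that batch tRNA synthetases stood at 61.3%, splicing genes at 60.7% and proteasome genes at 58.1%, so the lean was not particular to factors. Ribosome biogenesis genes stood at 41.2%. Of the fetal calls of members, 46.9% in the first batch were also adult calls (44.4 to 49.4), against 39.5% in the rest. Splicing genes stood at 44.5% and ribosome biogenesis genes at 44.9%, but tRNA synthetases at 35.7% and proteasome genes at 26.7%. Of first-batch adult member calls 45.1% were also fetal calls, against 41.9% in the rest. The second-batch shares of fetal calls were 53.3% for members and 52.3% for the rest.

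Fetal calls lay farther from member promoters than adult calls, as they did for other genes. In the first batch the median distance of member calls within a chromosome was 167 kb fetal (162 to 173) and 149 kb adult (144 to 154), a difference of 17.6 kb. It was 178 and 154 kb in the rest of the batch. The cytosolic promoters stood at 180 and 158 kb, the mitochondrial promoters at 153 and 142 kb and the factors at 155 and 129 kb. Second-batch member medians were 118 kb fetal (110 to 125) and 93.0 kb adult (87.4 to 101), against 101 and 77.4 kb in the rest.

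The fetal share of contacts called in 1 population alone was lower near member promoters than far from them, up to 500 kb. Between 20 and 60 kb the first batch held 42 fetal-only and 71 adult-only member contacts (37.2% fetal, 28.3 to 46.8), above the 30.2% of other genes, which lies inside that interval. Between 60 and 150 kb there were 206 and 336 (38.0% fetal, 33.9 to 42.2), below the 43.9% of other genes in that class. Between 150 and 500 kb there were 526 and 422 (55.5%, 52.3 to 58.7), below the 59.2% of other genes. For cytosolic promoters the shares were 35.9% and 53.2% in these 2 classes. In the second batch, 11 of 96 contacts called in 1 population between 20 and 60 kb were fetal-only (11.5%, 5.86 to 19.6), beside 15.7% for other genes. Between 60 and 150 kb the share was 66.5%, beside 64.3%.

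**Figure D2:**
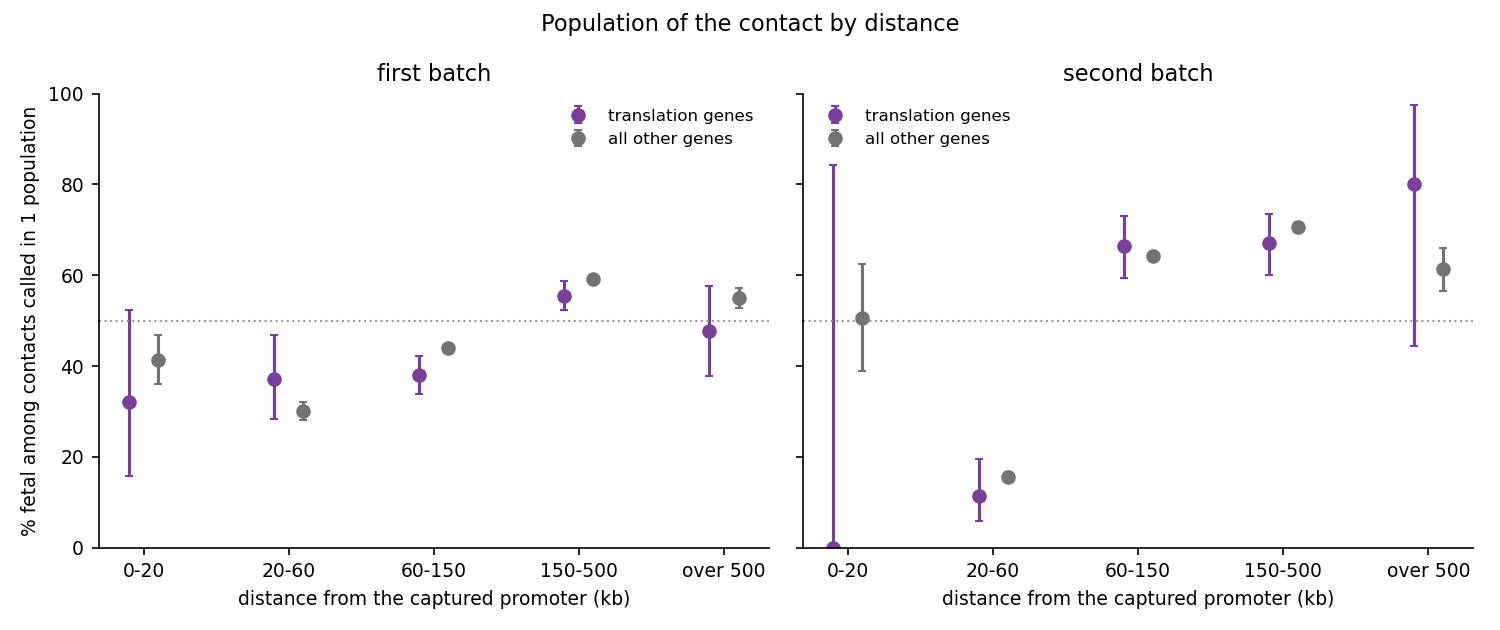
Percent fetal among contacts called in 1 population alone, by distance class in kb, for member promoters and for all other genes in each batch. Points are shares, bars are exact 95% intervals from counting error, and the dotted line marks 50%. In the second batch members rise from 11.5% between 20 and 60 kb to 66.5% between 60 and 150 kb, and the other genes from 15.7% to 64.3%. The nearest and farthest classes of members hold few contacts and have wide intervals.

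The distal bins that member promoters contacted were often promoters themselves. Bins carrying the authors' active-promoter mark took 20.3% of fetal member calls (18.4 to 22.4) and 24.2% of adult member calls (22.2 to 26.4) in the first batch, against 15.3% and 17.9% in the rest. The factors had the highest shares, 28.9% and 32.5%, followed by the cytosolic promoters with 22.0% and 25.3%, and the mitochondrial promoters had 9.56% and 15.3%. Second-batch members stood at 25.2% fetal (21.8 to 28.8) and 29.2% adult (25.5 to 33.2), against 18.1% and 20.1%. There the mitochondrial promoters had 27.9% and 29.6%, so their low share in the first batch was not seen in the second. No gene was captured in both batches, and gene and batch cannot be told apart in that difference.

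Highly expressed genes outside the set had shares close to those of cytosolic promoters in the first batch and above those of members in the second. Genes with at least 50 FPKM in both populations (the authors' expression level, scaled to transcript length) had 21.6% of fetal and 24.7% of adult calls in active-promoter bins over 122 entries of the first batch. The second batch had 19 such entries, with 34.7% (29.4 to 40.3) and 37.6% (32.4 to 43.0). Splicing genes of the first batch stood at 25.7% and 24.2%, and proteasome genes of the second at 26.2% and 27.6%. Member entries of the first batch below 50 FPKM had 14.9% and 19.8%, and those at or above it 24.1% and 27.0%. The part of expression level in these shares was not tested.

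**Figure D3:**
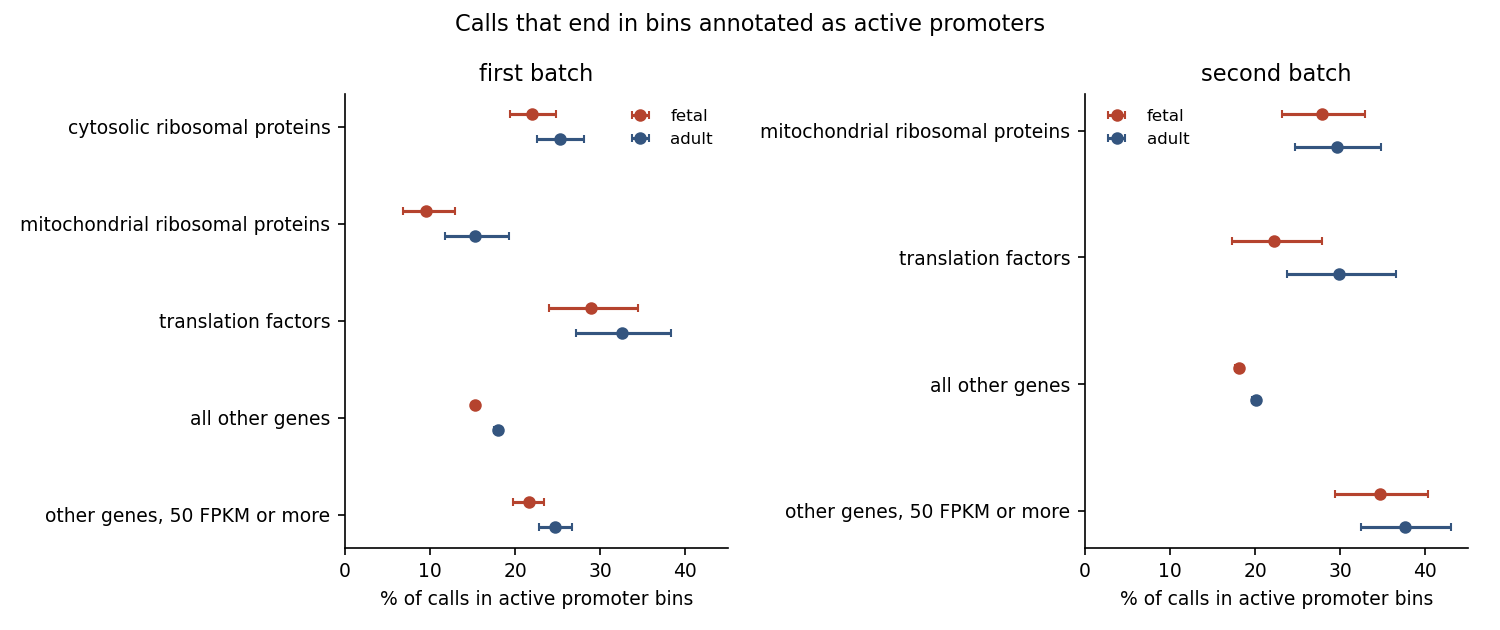
Percent of fetal and adult calls whose distal bin carries the active-promoter mark of the same population, by role, for all other genes and for other genes of at least 50 FPKM. Bars are exact 95% intervals from counting error, and the single cytosolic entry of the second batch is left out. In the first batch the cytosolic promoters, at 22.0% and 25.3%, lie beside the other genes of at least 50 FPKM, at 21.6% and 24.7%.

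Enhancer marks were about as frequent at member contacts as elsewhere in the first batch and less frequent in the second. Active-enhancer bins took 12.9% of fetal and 13.1% of adult member calls in the first batch, against 12.6% and 13.1% in the rest, and 8.62% and 9.07% in the second, against 13.0% and 13.8%. Open chromatin (ATAC) bins took 60.9% and 61.1% of member calls in the first batch, against 52.6% and 54.2%. Second-batch values were 52.5% and 57.0%, against 56.8% and 57.2%. Where an active-promoter bin carried the mark in both populations, 111 member contacts of the first batch were fetal-only, 155 adult-only and 194 called in both. That is 41.7% fetal among those called in 1 population (35.7 to 47.9), beside 46.8% for other genes. Bins with the active-promoter mark in fetal cells alone held 9 fetal-only and 13 adult-only member contacts (40.9% fetal, 20.7 to 63.6), too few to show a direction.

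Member promoters also contacted each other. The table lists 11 contacts between promoters of different member genes, all within a chromosome, and they join 4 pairs of genes, of which 3 are described. Each pair was seen from both of its captured promoters, which are separate captures. These contacts were singled out by membership and were not set against a rate for other gene sets. A captured promoter of any other gene lay in the bins of 7.52% of fetal and 8.98% of adult member calls in the first batch, against 5.16% and 6.49% in the rest, and 9.43% and 12.0% against 7.43% and 7.85% in the second.

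The pair with the highest counts was Eif2b5 and Eif4g1 on chromosome 16, whose captured fragments begin at 20498768 and 20673094 (mm9), 174 kb apart. The contact had 71 fetal and 51 adult counts seen from Eif2b5 and 69 and 64 seen from Eif4g1, and it was called in both populations from both ends. Seen from Eif2b5, the proteasome gene Psmd2 lay in the same stretch, with 95 fetal and 66 adult counts at 154 kb. The promoters printed above are those of this pair, and both Eif4g1 matches are E-boxes.

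Eif5a, the elongation factor that carries hypusine, and Eif4a1 lie about 249 kb apart on chromosome 11 and were captured in different batches. From Eif5a in the first batch 2 bins had 17 and 7 fetal and 27 and 15 adult counts, and the latter was called in adult cells alone. From Eif4a1 in the second batch the contact had 17 fetal and 20 adult counts and was called in adult cells alone. Adult counts were higher in each of the 3 bins. Rps16 and Mrps12 lie about 391 kb apart on chromosome 7, also captured in different batches. From Rps16 the contact had 7 fetal and 5 adult counts and was called in fetal cells alone. From Mrps12 it had 19 and 27 and was called in adult cells alone, so the 2 ends disagreed in direction.

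**Figure D4:**
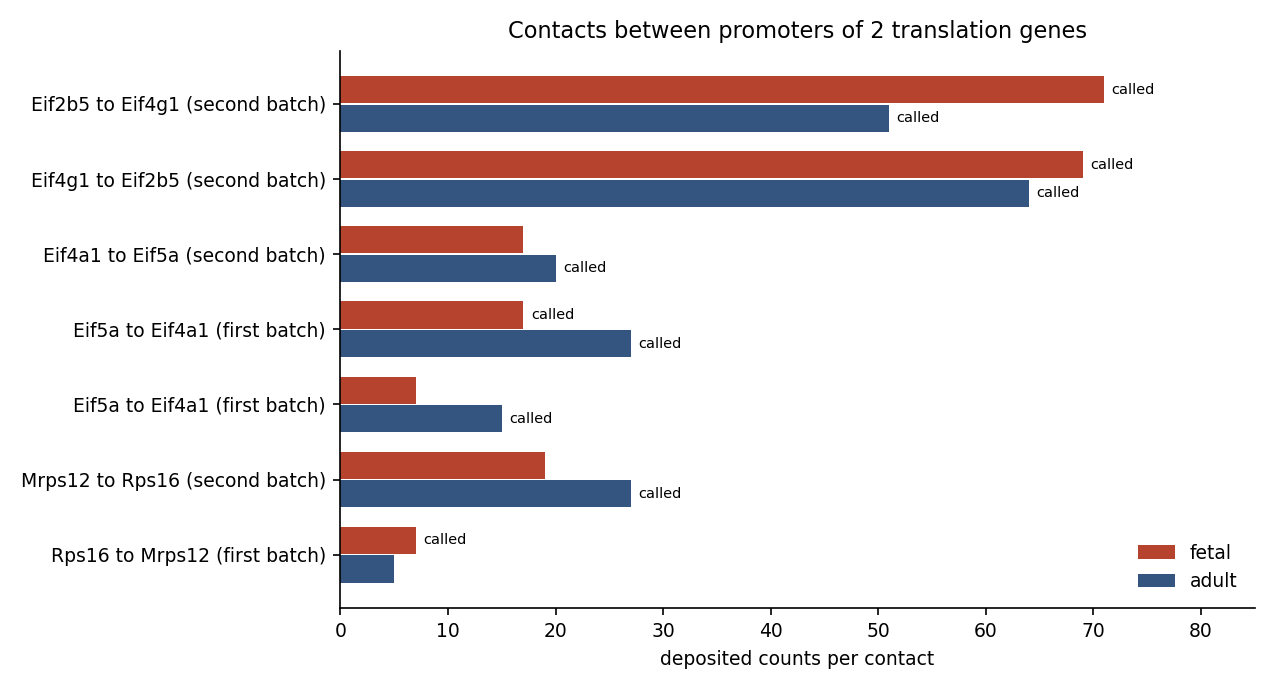
Deposited counts of the 7 contacts that join the 3 pairs of member promoters described, in fetal and adult cells, each seen from the gene named first. Bars are pooled counts with no replicate error, and the word called marks a score above 0. The Eif2b5 and Eif4g1 contact reaches 71 fetal counts, and the contacts of the other pairs lie between 5 and 27.

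Members also met at other places. Of 3165 distal bins contacted by members, 19 were contacted by more than 1 member gene, and these came from 5 pairs. Mrps12 and Rps16 shared 10 bins, Eif4a1 and Eif5a shared 6, and Eif2b5 with Eif4g1 and Eif2s2 with Eif6 shared 1 each.

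The contacts beyond 20 kb with the highest scores, 3 per population and batch, were all called in both populations. Eif2ak1 contacted the promoter of Aimp2, a scaffold protein of the tRNA synthetase complex, at 92.2 kb, with 203 fetal and 244 adult counts. Mrpl50 contacted the promoter of Rnf20, a histone ubiquitin ligase, at 111 kb with 107 and 117 counts. Mrpl18 contacted the promoter of Wtap, a subunit of the RNA methyltransferase complex, at 75.7 kb with 138 and 116 counts. Rps2_1 had 65 and 42 counts at an active-promoter bin 166 kb away. A few others are named after their values were seen. Eif3d contacted the promoter of Txn2, the mitochondrial thioredoxin, at 42.3 kb with 109 and 91 counts, and Mrpl49 contacted Pola2, a subunit of DNA polymerase alpha, at 92.6 kb with 118 and 134. Of these 6, counts were higher in adult cells at the Aimp2, Rnf20 and Pola2 contacts.

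Summed over contacts beyond 20 kb, counts of members were 1.11 times higher in fetal cells in the first batch and 1.15 times in the second, where the rest stood at 1.19 and 1.12. Without contacts of at least 1000 counts, first-batch members stood at 1.07 and the rest at 1.09, so most of that gap was gone. Second-batch values were then 1.15 and 1.14. These counts are unscaled, and so are the counts of single contacts given throughout. With counts scaled to the batch total, the median log2 count ratio per member contact turned from 0.10 (0 to 0.14) to -0.12 in the first batch and went from 0.24 to 0.10 in the second. That total covers all listed contacts within a chromosome, including those of at least 1000 counts, and the scaled values depend on them. The first-batch ratio of unscaled summed counts for cytosolic promoters was 1.09, and 1.03 without 1 contact of more than 1000 counts. That contact joined Rpl37a to a bin 71.0 kb away with 1291 fetal and 375 adult counts. It gave Rpl37a 1491 fetal and 624 adult counts although it had 15 fetal and 23 adult calls. Eif2s3x, the X-linked gene of an initiation factor 2 subunit, likewise had 307 fetal and 71 adult counts, of which 227 and 16 came from 1 bin 59777 kb away. The lowest ratio belonged to Rps27a, which encodes ubiquitin fused to a ribosomal protein, with 33 fetal and 75 adult counts.

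Contacts between chromosomes were few but heavy. In the first batch 47 member contacts at 32 entries joined different chromosomes, 1.87% of member contacts against 1.31% of all contacts in the batch. The cytosolic promoters held 33 of them. All 47 together took 30.8% of fetal and 21.7% of adult member counts, beside 32.1% and 31.2% in the rest. Rpl24 had 8538 fetal and 5025 adult counts in a single bin of chromosome 11. The second batch had 8 (1.05% of all contacts in that batch were of this kind), led by Rps4y2 with 5554 and 4696 counts on chromosome 7 and Mrpl41 with 1890 and 1595 on chromosome 17. Ribosomal protein genes have many near-identical processed copies elsewhere in the genome. Reads from a gene and a copy cannot always be told apart. How such reads were assigned is not given in the sources used here, so these contacts are uncertain. Whether the contacted bins hold such copies was not tested.

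At some of these contacts adult counts were few. Of 21 first-batch member contacts between chromosomes with at least 30 counts in a population, 8 were at least 10-fold higher in fetal cells and 0 in adult cells. In the rest of that batch 46 of 291 were at least 10-fold higher in fetal and 1 in adult cells. Other genes thus leaned the same way, but a larger share of the member contacts reached that size. Rps7 had 279 fetal and 5 adult counts on the X chromosome, Rps16 had 266 and 10 on chromosome 5 and Eif2s2 had 146 and 8 on chromosome 8. Rps3a had 109 fetal and 0 adult counts on chromosome 13, and Eef1a1 had 71 and 0 on chromosome 2. A count of 0 allows up to 3 counts, so these were at least 36.3-fold and 23.7-fold higher in fetal cells against a floor of 3 counts. Among second-batch members 0 of 6 such member contacts reached that size. Alternative fragments of 1 gene met the same bin for Rps14 (3 fragments), Rpl28 (2 fragments) and Mrpl21 (2 fragments).

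Expression of cytosolic ribosomal protein genes hardly differed between the populations, whereas mitochondrial ribosomal protein genes were higher in fetal cells throughout. The authors' FPKM values are 1 per population with no replicates, the samples behind them are not given in the sources used here, and where entries of a gene differed the highest was taken. Differences are log2((fetal FPKM + 1)/(adult FPKM + 1)), a scale that shrinks the differences of weakly expressed genes. In bulk values of this kind, fewer cells of a type and less RNA per cell cannot be told apart.

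The 44 cytosolic genes of the first batch had median levels of 430 FPKM fetal and 432 adult. Of these, 30 were higher in fetal and 14 in adult cells, against 48.2% of all genes of the batch higher in fetal and 51.0% higher in adult cells. Their median log2 difference was 0.08 (0.01 to 0.13), with a range of -0.46 to 0.74. None reached a 2-fold difference, a size that 4.77% of all genes reached towards fetal and 12.6% towards adult. Rps2, which the authors' deposited table marks as differentially expressed, had 652 fetal and 431 adult FPKM at its higher entry. Rps27l, a p53 target and paralogue of Rps27, had 84.1 and 49.9. The genes highest in adult cells by ratio were Rps3a, with 364 and 503 FPKM, Rpl21, with 98.3 and 130, and Rps24, with 613 and 751. Rps19 and Rps12, promoters with more adult calls, had 852 and 917, and 691 and 610 FPKM, so their levels differed by far less than their calls. Rpl5 (155 and 176) and Rpl11 (427 and 391), which carry the 5S RNA and bind MDM2, went in different directions.

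All 16 mitochondrial genes of the first batch and all 19 of the second were higher in fetal cells, against 48.2% and 46.2% of all genes (53.8% of second-batch genes were higher in adult cells). The median log2 differences were 0.65 (0.27 to 0.85) and 0.71 (0.62 to 0.82), beside -0.06 and -0.54 in the rest of each batch. Levels were low, with first-batch medians of 17.6 fetal and 10.0 adult FPKM and second-batch medians of 14.6 and 8.52. The largest differences were 21.6 against 9.82 FPKM at Mrpl21_1 and 34.1 against 14.9 at Mrpl12, and the smallest was 31.3 against 28.6 at Mrpl48. Mrps28, with 15.1 and 7.51, Mrps36, with 14.3 and 7.24, and Mrpl34, with 34.6 and 18.6, lay between them. The second batch is a selected set, since 100.0% of its genes carry the authors' mark of differential expression, against 35.5% in the first batch and 5 of the 16 mitochondrial genes there. The size of second-batch differences is therefore tied to that selection.

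Of the translation factors, 11 of 14 in the first batch and 10 of 12 in the second were higher in fetal cells, with median log2 differences of 0.35 (-0.01 to 0.70) and 0.61 (0.55 to 0.73). Eif5a had 732 fetal and 438 adult FPKM, Eef1g had 290 and 193 and Eif4a1 had 193 and 116. All 5 eIF2B subunits were higher in fetal cells, from 3.62 and 2.69 FPKM at Eif2b3 to 27.3 and 19.5 at Eif2b2. They span both batches, where 48.2% and 46.2% of all genes were higher in fetal cells. Eif6, which keeps the subunits of the ribosome apart until they are mature, had 25.9 and 16.8, and the scaffold Eif4g1 had 61.1 and 40.2. Eef1a1, which delivers tRNA to the ribosome, was the highest of all members and equal, with 2426 and 2450 FPKM.

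The factor genes higher in adult cells were few. Eif4a2, the paralogue of the helicase Eif4a1, had 47.2 fetal and 102 adult FPKM, a log2 difference of -1.09, opposite to Eif4a1. It was 1 of 2 first-batch members to reach a 2-fold difference, with Mrpl21 in the fetal direction, although the authors' deposited table does not mark it. Eif2ak2, the kinase that responds to double-stranded RNA, had 3.18 and 5.96 and is marked. Eif4e3, a cap-binding protein of the Eif4e family, had 2.37 and 4.73, and the Argonaute gene Eif2c4 had 0.341 and 1.08. Of the 32 second-batch members 2 reached a 2-fold difference, Rps4y2 (15.5 and 4.48 FPKM) and Mrpl12, both in the fetal direction, against 11.5% of its genes towards fetal and 16.0% towards adult.

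**Figure D5:**
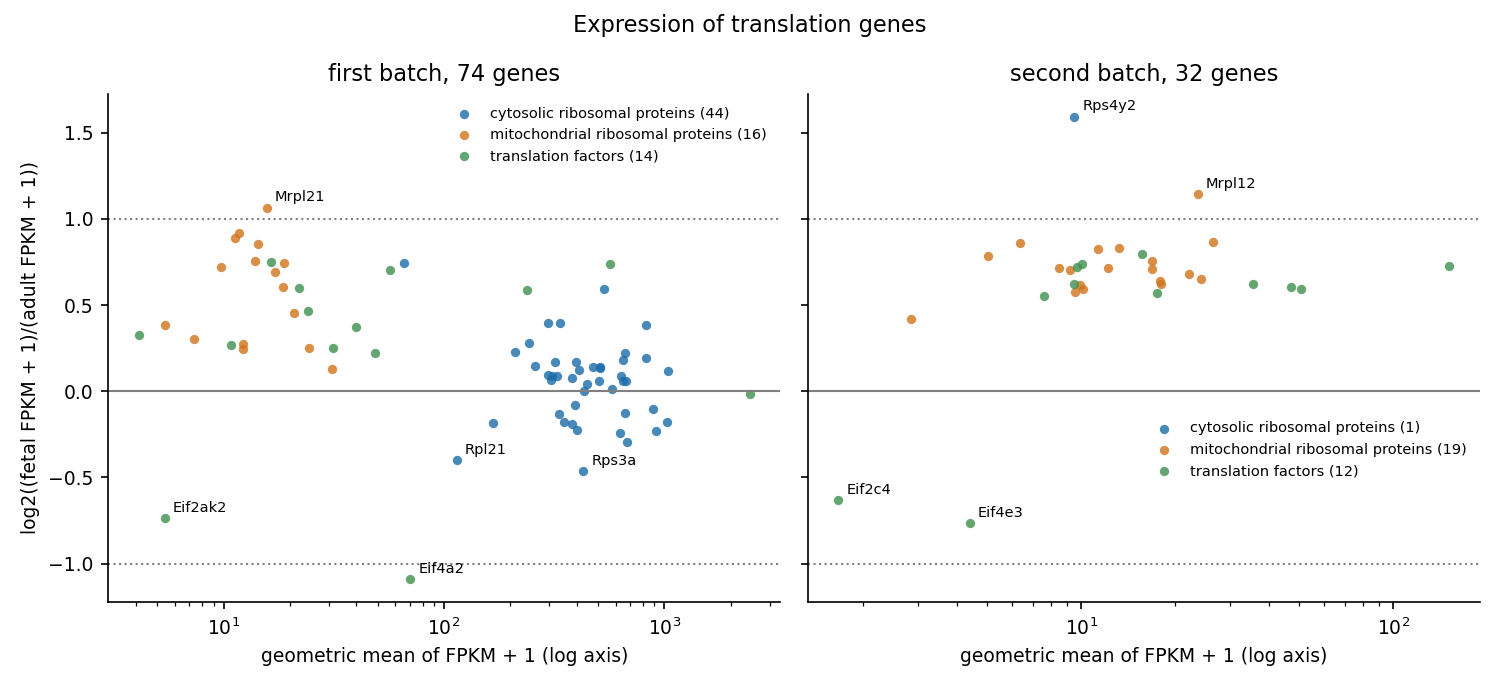
Log2 difference of FPKM + 1, fetal over adult, against the geometric mean of FPKM + 1 of both populations on a log axis, for 74 member genes of the first batch and 32 of the second. Points are genes coloured by role, with the solid line at equality and dotted lines at a 2-fold difference. Cytosolic genes sit at the right around 0.08, mitochondrial genes all lie above 0, and Eif4a2, Eif2ak2, Eif4e3 and Eif2c4 lie below it.

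Markers of HSCs and of other cell types also differed between the populations. HSC markers, 11 of 12 listed in the table, summed to 247 FPKM fetal and 374 adult, with 9 of 11 higher in adult cells. Erythroid markers, 6 of 6, summed to 69.5 and 17.0 FPKM, all higher in fetal cells. Macrophage markers, 6 of 7, summed to 32.9 and 2.34, and granulocyte markers, 3 of 4, to 71.2 and 5.18, again all higher in fetal cells. Hba-a1, an alpha globin gene, had 6.27 and 0.0112 FPKM, Mpo, of granulocyte precursors, had 46.1 and 2.04, and Csf1r, of macrophages, had 5.67 and 0.0390. Flt3, which encodes the CD135 antigen excluded by the sort, had 6.20 and 3.81. None of the 4 lymphoid and 4 hepatocyte markers was in the table. The part of such cells in the expression of translation genes was not tested.

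Other genes of protein synthesis lay in the same direction as the mitochondrial members. Both batches are pooled in these lists, and 48.2% of all genes in the first and 46.2% in the second were higher in fetal cells. All 16 aminoacyl-tRNA synthetases in the table, of 37 listed, were higher in fetal cells, with a median log2 difference of 0.68 and 0 at 2-fold or more. By batch these were 7 genes (median 0.55) and 9 genes (0.77), and the second batch is the selected set described above. Gars, for glycine, had 30.5 and 15.2 FPKM and Kars, for lysine, had 47.8 and 32.3. Of 29 ribosome biogenesis genes in the table, of 68 listed, 25 were higher in fetal cells (median 0.62, with 0 at 2-fold or more). The first batch had 17 of 21 (median 0.55) and the second 8 of 8 (0.71). Npm1, a nucleolar chaperone, had 307 and 214 FPKM, while Sbds, which helps release Eif6 from the large subunit, was lower in fetal cells with 12.8 and 15.5. Of 11 other translation factors in the table, of 32 listed, 7 were higher in fetal cells (5 of 7 in the first batch, 2 of 4 in the second). Pabpc4 and the mitochondrial elongation factor Tufm, with 27.7 and 13.2 FPKM, reached 2-fold. Of 6 genes for control of translation by nutrients, of 22 listed, 3 were higher in each population. Pdcd4, an inhibitor of the Eif4a helicase, had 23.7 fetal and 112 adult FPKM.

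The direction of calls did not clearly follow that of expression at the same member. Of 78 first-batch entries with unequal calls, 44 had calls and FPKM higher in the same population (56.4%, 44.7 to 67.6), and 18 of 30 did in the second batch (interval 40.6 to 77.3%). The rest of the batches stood at 51.0% and 52.3%. As a description, Spearman's rho over entries was 0.04 in the first batch (85 entries) and -0.06 in the second (32 entries). Entries share the libraries, and alternative promoters share a gene. In the second batch all 19 mitochondrial genes had higher fetal FPKM, while their entries were split 9 to 9 by calls.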

How the data were processed

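Promoter Capture-C contacts of fetal liver and bone marrow HSCs were taken from 1 deposited table. The count per contact, pooled over the libraries of a population, is as deposited by the authors, and the sources used here do not give whether it is a sum or a mean. The score per contact was made and thresholded by the authors, and how it was computed is not given in the sources used here. The FPKM per gene, the mark of differential expression and the 0 or 1 marks of bins are as deposited by the authors, and the samples and assays behind them are not given in the sources used here. Per the submitters' processing notes, tools were Trim Galore 0.41 and Bowtie2 2.2.2 and the build was mm9.

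Members, lists and the rule for named genes were chosen with earlier results of these data known. The rule names, per batch, the 5 entries with the most calls, the 5 largest call and FPKM ratios each way, the highest contacts and a fixed gene list, and other names are marked in the text. Some results that the rule covers are not reported here. Calls were summed per promoter entry, ratios had 1 added to each side, and "2-fold" needs at least 10 calls in all. Scripts ran in Python 3.11.15 with pandas 2.3.3 and SciPy 1.17.1 and recovered 7 of 7 known answers on 300 simulated promoters. Total counts per population of the listed contacts are given rounded to the nearest 10. They were 1312830 fetal and 1098960 adult (first batch) or 2368080 fetal and 2135160 adult (second).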

Additional observations from a re-analysis of the deposited data

How the results depend on the processing

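No paired analysis was possible because the deposited values are pooled over the libraries of a population, and for the same reason no library could be left out. Of 224 values recomputed under another setting, 174 stayed within the interval of the value reported, or for a count within 1.5 times of it, and 50 moved. In 5 of the 224 the value crossed to the other side of no difference, all in the first batch, and the interval of each value reported held no difference. These were the share of member entries with more fetal calls (4 settings: 35.1%, 40.3%, 48.8% and 47.7% in place of 51.3%) and the scaled counts below. The cause of the moves was not tested. Member calls had a median of 11 to 12 counts (first batch) or 29 to 30 (second).

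A score 1 unit above the lowest called lowered the share of first-batch member entries with more fetal calls from 51.3% to 35.1% and the fetal share of contacts called in 1 population from 48.2% to 44.0% (cytosolic 46.0% to 42.2%). It gave 3 first-batch entries at least 2-fold higher in fetal calls (2 cytosolic) in place of 0, and in the second batch 1 fetal and 0 adult in place of 2 and 1. Median distances moved to 160 kb fetal and 142 kb adult. Active-promoter shares rose to 22.5% fetal and 29.3% adult (cytosolic adult 32.3%), and to 31.7% and 34.8% in the second batch.

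Merging called bins up to 5 kb apart gave 1 first-batch entry at least 2-fold higher in adult calls (cytosolic 0) and 4 fetal (3 cytosolic). The 5 entries that passed towards adult before merging were all cytosolic, so none of them passed after it. In the second batch merging gave 1 fetal and 0 adult. Contacts called in both rose from 29.8% to 38.0% (cytosolic 27.7% to 39.6%). Where bins within 5 kb counted as shared, they rose to 61.8% (cytosolic 60.4%, second batch 66.8%) and the fetal share of the others was 45.7%. With 1 entry per gene, 3 adult-leaning entries were left, all 3 cytosolic. Beyond 20 kb within the chromosome, 1 entry leaned to fetal.

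As a median over promoters, adult distances were 138 kb (cytosolic 147 kb, second batch 87.4 kb). Without mitochondrial genes, active-promoter shares were 23.7% and 26.9% in the first batch. In the second, 91.7% of unequal entries had more fetal calls, 63.5% of contacts called in 1 population were fetal, and 0 entries passed 2-fold either way. Scaling counts to the batch total moved the median log2 count ratio per contact from 0.10 to -0.12 (cytosolic 0 to -0.20, second batch 0.24 to 0.10). The rest with at least 50 FPKM had active-promoter shares of 21.6% and 24.7%, and in the second batch 34.7% and 37.6% with a median of 16 fetal and 18 adult calls. Allowing 5 kb around the bin, contacts between member promoters numbered 24 in place of 11. Chosen after seeing the data, leaving out the 5 entries with the most calls gave 31.7% and 38.3% in the second batch.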
